A study of Mus musculus with 4 samples.

Results

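The BCL2 family decides whether a cell keeps its mitochondria intact or opens them to start apoptosis, and 10 of its genes are described here in naive CD4 T cells of mice that lack BTG1 and BTG2. The members were fixed by name: the pro-survival genes Bcl2, Bcl2l1 and Mcl1, the BH3-only death genes Bcl2l11, Bbc3, Pmaip1, Bid and Bad, and the effector genes Bax and Bak1. They are 10 of 48858 genes to which estimated transcript counts were summed, and all 10 were among the 12863 genes that passed the filter on low counts and were tested.

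The series measured rRNA-depleted total RNA of sorted TCRb+ CD4+ CD25- CD62Lhi CD44low cells in 4 libraries, 2 from wild-type littermates (WT) and 2 from double-knockout mice (DKO). Every mouse carried loxP-flanked alleles of both genes (Btg1f/f Btg2f/f). The DKO mice also carried CD4-Cre, a recombinase driven by Cd4 regulatory sequences, which acts in the T cell lineage from thymocytes onward, and the WT mice are labelled as littermate controls of genotype Btg1f/f Btg2f/f. The labels used here give neither age nor sex. By its title, the series asked about the part of BTG1 and BTG2, which promote mRNA decay, in keeping T cells quiescent.

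Pro-survival proteins of the family hold BAX and BAK in check at the outer mitochondrial membrane. BH3-only proteins carry a short helix, the BH3 domain, with which they occupy the groove of the pro-survival proteins or engage BAX and BAK directly, and free BAX and BAK then form pores that release cytochrome c. Resting T cells live for long periods on IL-7 and self-peptide signals that keep BCL2 and MCL1 ahead of BIM, the product of Bcl2l11.

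Through the BH3 domain, BH3-only proteins bind the groove of the pro-survival proteins or engage BAX and BAK. The stretch of coding sequence that encodes its core is shown for 9 members. The sequences are those of transcripts that were counted. In each member's most abundant coding transcript, exactly 1 in-frame match was found to codons for leucine, any 3 residues, then glycine, alanine or serine, then aspartate. The 27 bases from the leucine codon are given 5′ to 3′ in GENCODE M21 on GRCm38. Capitals mark the leucine codon and the pair of codons that ends in aspartate.
Bcl2: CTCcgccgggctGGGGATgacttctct
Bcl2l1: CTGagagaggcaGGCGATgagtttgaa
Mcl1: CTGcggcgcgtgGGCGACggcgtgcag
Bcl2l11: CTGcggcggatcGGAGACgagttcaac
Bbc3: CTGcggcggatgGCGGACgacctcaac
Bid: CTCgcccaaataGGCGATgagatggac
Bad: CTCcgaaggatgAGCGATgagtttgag
Bax: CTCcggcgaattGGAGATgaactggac
Bak1: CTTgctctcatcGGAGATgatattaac

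Of the 27 positions, 6 held the same base in all 9. The search required codons for leucine and aspartate at set places, so part of this identity was fixed by it. The same requirement adds to the identity counted in every pair. The closest pair was Bcl2l11 and Bbc3, both BH3-only, with 22 identical bases, and the most distant was Bcl2 and Bak1 with 11. Each window lies within 1 coding exon. Those of the 3 genes that differed most clearly between genotypes below are chr1:106712575-106712601 (minus strand, exon 1), chr7:16313773-16313799 (plus strand, exon 3) and chr7:45465997-45466023 (minus strand, exon 3).

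Total estimated counts were 13889894 to 17827631 per library, and the 10 members together held 3554 to 7354 of them. As a check of the labels, the targeted Btg1 was at 530 and 470 CPM in WT against 6.06 and 5.77 CPM in DKO, and Btg2 at 92.9 and 92.1 CPM against 0.294 and 0.323 CPM. Genes annotated as protein-coding took 35.7 to 38.9% of the counts in WT and 44.7 to 48.9% in DKO, so the scaling between libraries bears on every level below. Levels are CPM, counts scaled to a fixed library total after normalization by the trimmed mean of M-values (TMM), unless TPM is named, and differences are log2 fold changes of DKO minus WT. The median of all tested genes was −0.01 under TMM, 0.33 with total counts alone and 0.90 when libraries were scaled to 5 RNA polymerase III transcripts. T cell genes were abundant in every library, with summed levels of 1239 to 1578 CPM for 6 markers such as Cd3e and Cd4. Of 9 myeloid markers, which summed to 3.12 to 6.24 CPM, S100a8 and S100a9 had no count and Itgam was at 1.77 to 2.95 CPM. The 7 B cell markers summed to 142 to 186 CPM, of which Ighm made up 139 to 181 CPM. For 2 against 2 libraries the smallest p of an exact two-sided permutation test is 0.33, and p-values come instead from the fit across all genes. The labels describe 2 pairs of WT and DKO mice but do not say which libraries form a pair, and the p-values measure the spread between these libraries. In bulk RNA, fewer cells that express a gene and less RNA of it per cell cannot be told apart.

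After Benjamini-Hochberg adjustment at 0.05, 0 of the 10 members passed the quasi-likelihood test of edgeR, which 0.124% of all genes tested did. By DESeq2 0 members passed, against 188 of all 12863 genes tested. In direction, 8 of the 10 log2 fold changes were above 0, and they had a median of 0.29 against −0.01 over all genes. The genotypes did not overlap in 6 members (38.6% of all genes): DKO was higher in 5 (19.8% of all genes) and lower in 1 (18.8% of all genes). At an unadjusted p below 0.05 by edgeR there were 3 members (8.18% of all genes), with 3 higher (3.82%) and 0 lower (4.35%). The 3 genes fall in different classes: Bcl2 opposes cell death, Bbc3 promotes it and Bax carries it out.

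**Figure D1:**
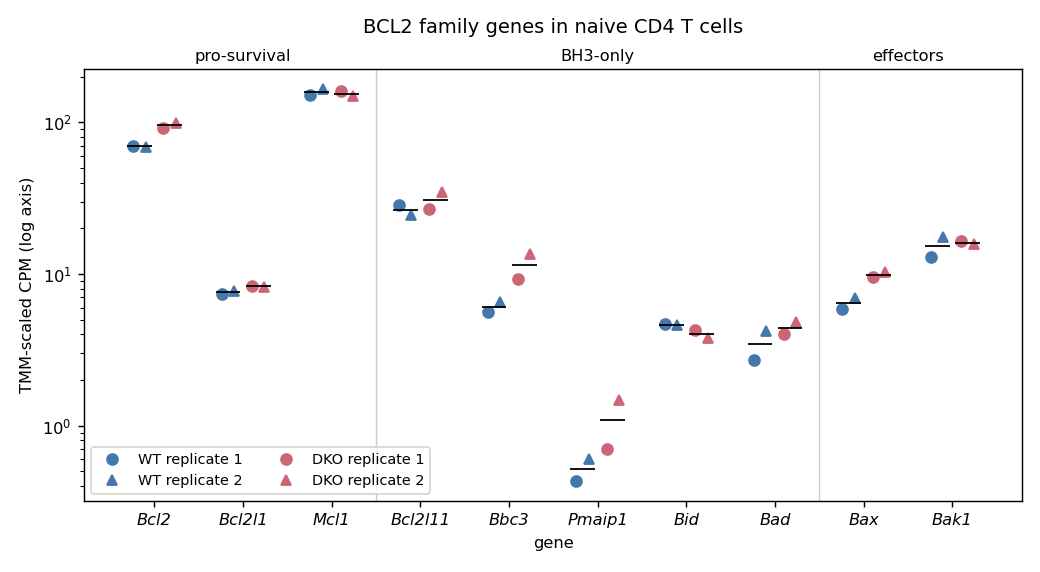
TMM-scaled CPM (log axis) of the 10 members in the 4 libraries, with circles for replicate 1, triangles for replicate 2 and a black line at each group mean. Bcl2, Bbc3 and Bax sit higher in both DKO libraries, whereas Mcl1 is at 148 to 166 CPM in all 4.

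Among the pro-survival genes, Bcl2 (ENSMUSG00000057329, chromosome 1, 106538178 to 106714274, minus strand) encodes the founding member, which sustains resting lymphocytes. It was at 70.2 and 68.4 CPM in WT and at 92.3 and 99.2 CPM in DKO. The groups did not overlap, and the gap between them was larger than the spread within either. The means were 69.3 ± 1.29 and 95.7 ± 4.92 CPM (SD, n = 2 each), which the fit put at a log2 fold change of 0.47 (SE 0.13, 95% interval 0.17 to 0.76) or 1.38-fold. The adjusted p was 0.313 by edgeR. With each library left out in turn the log2 fold change was 0.44 to 0.54. Of its exon bases, 6.09% overlap an antisense gene with 16 to 88 counts. Il7r, which encodes the IL-7 receptor chain whose signal sustains Bcl2 expression in T cells, was at 148 and 139 CPM in WT against 180 and 213 CPM in DKO, a log2 fold change of 0.45 (SE 0.14) with an edgeR adjusted p of 0.415. Whether Il7r bears on the level of Bcl2 in these libraries was not tested.

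Mcl1 (ENSMUSG00000038612, chromosome 3, 95658788 to 95663176, plus strand) encodes a short-lived pro-survival protein that most lymphocytes depend on. Its levels were 150 and 166 CPM in WT and 160 and 148 CPM in DKO and overlapped. The log2 fold change of −0.04 had a 95% interval of −0.35 to 0.27, so the fit places the DKO level between 0.785 and 1.21 times the WT level under this scaling. Bcl2l1 (ENSMUSG00000007659, chromosome 2, 152780668 to 152831728, minus strand), the gene of BCL-XL, which is most used by thymocytes and activated T cells, was much scarcer. It had 7.32 and 7.77 CPM in WT and 8.36 and 8.22 CPM in DKO. The libraries did not overlap, yet the log2 fold change of 0.14 (SE 0.21, 95% interval −0.35 to 0.62) was within the error of the fit.

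Among the BH3-only genes, Bbc3 (ENSMUSG00000002083, chromosome 7, 16308393 to 16318205, plus strand) encodes PUMA, a potent killer protein induced by p53, FOXO factors and cytokine loss. It was at 5.60 and 6.56 CPM in WT and at 9.30 and 13.5 CPM in DKO, from 78 and 76 against 158 and 292 estimated counts. Both DKO libraries were higher, and DKO replicate 2 was highest. The means were 6.08 ± 0.680 and 11.4 ± 2.96 CPM (SD, n = 2 each), which the fit put at a log2 fold change of 0.91 (SE 0.25, 95% interval 0.34 to 1.49) or 1.88-fold. The adjusted p was 0.314 by edgeR. The log2 fold change was 0.64 without DKO replicate 2 and 1.17 without DKO replicate 1.

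Bcl2l11 (ENSMUSG00000027381, chromosome 2, 128126038 to 128162547, plus strand) encodes BIM, the BH3-only protein that removes self-reactive thymocytes and ends T cell responses. It was the most abundant BH3-only transcript, at 28.4 and 24.3 CPM in WT and 26.7 and 34.7 CPM in DKO. The groups overlapped because DKO replicate 1 lay between the WT libraries, and the log2 fold change was 0.22 (SE 0.17, 95% interval −0.17 to 0.61). It was 0.04 without DKO replicate 2 and 0.42 without DKO replicate 1.

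The remaining 3 BH3-only genes were weakly expressed. Pmaip1 (ENSMUSG00000024521), the gene of NOXA, which binds MCL1, had 6 and 7 estimated counts in WT and 12 and 32 in DKO. That corresponded to 0.431 and 0.604 against 0.706 and 1.48 CPM. The libraries did not overlap, but the 95% interval of the log2 fold change ran from −0.76 to 2.93, and a difference was not detectable at this depth. Bid (ENSMUSG00000004446, chromosome 6, 120891930 to 120916853, minus strand), whose product links death receptors to mitochondria after caspase-8 cleavage, was the only member lower in both DKO libraries. It was at 4.67 and 4.58 CPM in WT and 4.24 and 3.79 CPM in DKO, a log2 fold change of −0.21 (SE 0.29), and it is uncertain because 17.7% of its exon bases overlap Bcl2l13 on the opposite strand. In TPM, by contrast, both DKO libraries lay higher (0.191 and 0.161 in WT, 0.243 and 0.202 in DKO). Bad (ENSMUSG00000024959, chromosome 19, 6941861 to 6951899, plus strand), whose product is silenced by growth-factor phosphorylation, was at 2.73 and 4.23 CPM in WT and 4.0 and 4.8 CPM in DKO. These overlapped (log2 0.35, SE 0.35), and 20.5% of its exon bases are shared with the protein-coding Gpr137 on the opposite strand. Its log2 fold change was 0.06 without WT replicate 1 and 0.71 without WT replicate 2.

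Of the effectors, Bax (ENSMUSG00000003873, chromosome 7, 45461697 to 45466898, minus strand), which forms pores after moving from the cytosol to mitochondria and is a p53 target, was higher in both DKO libraries. It was at 5.89 and 6.91 CPM in WT and at 9.54 and 10.2 CPM in DKO. The means were 6.40 ± 0.722 and 9.89 ± 0.504 CPM (SD, n = 2 each), which the fit put at a log2 fold change of 0.63 (SE 0.22, 95% interval 0.13 to 1.13) or 1.55-fold. The adjusted p was 0.475 by edgeR. Leaving out each library in turn gave log2 fold changes of 0.52 to 0.76. Bak1 (ENSMUSG00000057789, chromosome 17, 27019810 to 27029009, minus strand), the effector that resides on mitochondria, was at 12.9 and 17.6 CPM in WT and 16.4 and 15.8 CPM in DKO. Both DKO libraries lay inside the WT range, and the log2 fold change was 0.08 (SE 0.19). The 2 annotated Ggnbp1 entries on the opposite strand overlap 18.2% and 7.35% of its exon bases.

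**Figure D2:**
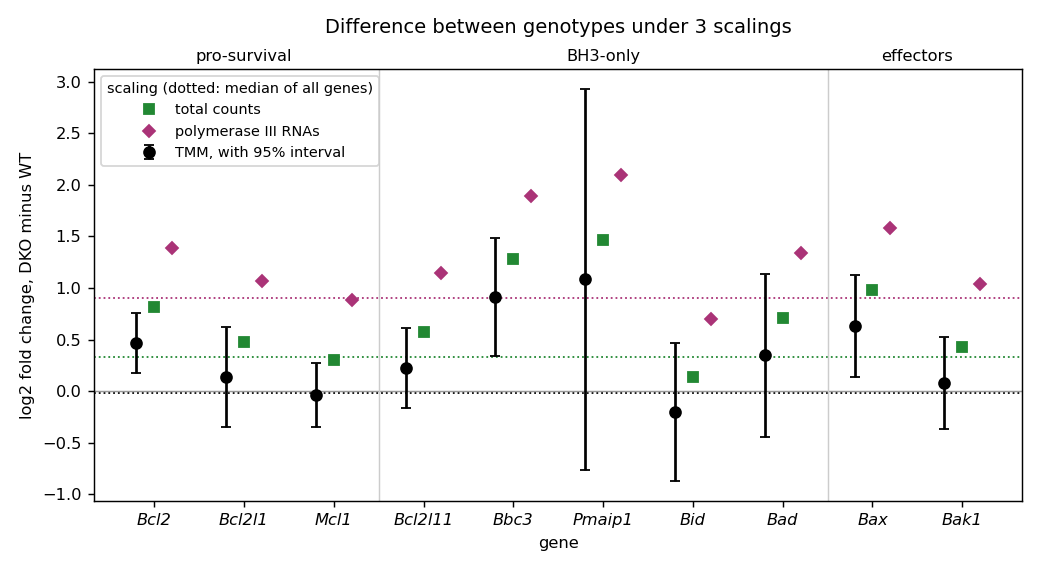
Log2 fold change (DKO minus WT) of each member under TMM with its 95% interval, with total counts (squares) and scaled to polymerase III RNAs (diamonds), beside the median of all genes under each (dotted lines). Under all 3, Bid and Mcl1 lie below the dotted line of the same colour, Mcl1 close to it, and every other member lies above it.

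Which members passed depended on the scaling. With total counts, Bcl2 (log2 0.81, adjusted p = 0.0397) and Bbc3 (1.28, adjusted p = 0.0333) passed edgeR's test, against 2.02% of all genes (1.51% higher in DKO). Scaled to the polymerase III transcripts, Bcl2 (1.39, adjusted p = 0.0407), Bbc3 (1.89, adjusted p = 0.0103) and Bax (1.58, adjusted p = 0.0412) passed by edgeR, against 3.84% of all genes (3.67% higher in DKO). Relative to the median of all genes the same values were 0.49 and 0.95 for Bcl2 and Bbc3 with total counts, and 0.49, 0.98 and 0.68 for Bcl2, Bbc3 and Bax with the polymerase III scaling, close to those under TMM. Bbc3 also passed by edgeR when genes with low counts were kept (log2 0.95, adjusted p = 0.0172), against 1.52% of all genes (0.544% higher in DKO).

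Compared per transcript length, Mcl1 stood first among the members. Protein-coding genes held 2.22 to 2.71% of all TPM in these libraries, so their TPM is low throughout and serves here to compare genes within a library. Mcl1 was at 4.22 and 4.31 TPM in WT and 5.49 and 5.67 TPM in DKO, at the 95.1 percentile of tested protein-coding genes by mean level. In WT, Bcl2l11 (1.26 and 0.709 TPM) and Bcl2 (0.964 and 0.785 TPM) came next and overlapped, followed by Bax (0.686 and 0.685 TPM) and Bak1 (0.583 and 0.685 TPM), which met at their upper ends. Bbc3 (0.435 and 0.447 TPM) stood below these and above Bad (0.336 and 0.363 TPM) and Bcl2l1 (0.326 and 0.310 TPM), which were near each other. Bid (0.191 and 0.161 TPM) and Pmaip1 (0.0145 and 0.0174 TPM) were last. In DKO, Bax (1.41 and 1.54 TPM) stood level with Bcl2 (1.36 and 1.69 TPM), and Bbc3 (0.678 and 1.16 TPM) overlapped Bak1 (0.812 and 0.904 TPM). The places of Bcl2l11 and Bak1 rest partly on transcripts not annotated as protein-coding. Of the Bcl2l11 TPM in WT, Bcl2l11-206 took 4.84 and 11.6%, Bcl2l11-207 28.7 and 22.6% and Bcl2l11-208 18.7 and 8.61%. Bak1-201, annotated as a target of nonsense-mediated decay, took 93.6 and 61.6% of the Bak1 TPM in WT. In DKO it took 78.1 and 57.4%.

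Ratios between members within a library do not depend on how libraries are scaled to each other, and 10 were computed from TPM. The BH3-only sum includes transcripts not annotated as protein-coding, among them those of Bcl2l11. The summed pro-survival genes were at 2.46 and 3.18 times the summed BH3-only genes in WT and at 3.17 and 2.15 times in DKO. These overlapped, with a log2 difference of −0.10 against a pooled SD of 0.335, and the difference was −0.38 without DKO replicate 1 and 0.18 without DKO replicate 2. Against Bax plus Bak1 they were at 4.34 and 3.94 times in WT and at 3.25 and 3.21 times in DKO, without overlap, a log2 difference of −0.36 against a pooled SD of 0.0705. That difference was −0.14 when CPM was used in place of TPM and −0.61 when only transcripts annotated as protein-coding were counted.

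Bax over Bak1 was 1.18 and 1.0 in WT against 1.74 and 1.70 in DKO (log2 difference 0.66, pooled SD 0.119), but it reversed to −0.31 with a pooled SD of 1.47 when only transcripts annotated as protein-coding were counted. Bcl2 over Mcl1 was 0.228 and 0.182 in WT against 0.247 and 0.298 in DKO, without overlap. Mcl1 over Bbc3 was 9.69 and 9.64 in WT against 8.10 and 4.88 in DKO, and Bbc3 over Bcl2l11 was 0.345 and 0.630 in WT against 0.759 and 0.739 in DKO, both without overlap. The log2 difference of Mcl1 over Bbc3 was −0.62, and −0.25 without DKO replicate 2. Bcl2 over Bax was 1.41 and 1.15 in WT against 0.961 and 1.10 in DKO, also without overlap. Bcl2 and Bcl2l11 are the pair best known to balance each other in T cells. Their ratio was 0.764 and 1.11 in WT against 1.52 and 1.07 in DKO, which overlapped. So did Bcl2 over Bbc3 and Mcl1 over Bcl2l11. Ratios with Bcl2l11 include its transcripts not annotated as protein-coding. One of them, Bcl2l11-207 of 391 bases, took 28.7 and 22.6% of its TPM in WT and 9.68 and 30.5% in DKO. None of the 8 single-gene ratios can pass an exact permutation test in this design. With 2 against 2 libraries, groups separate by chance in 16.7% of cases in each direction. The ratios share genes, so they are not separate observations.

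**Figure D3:**
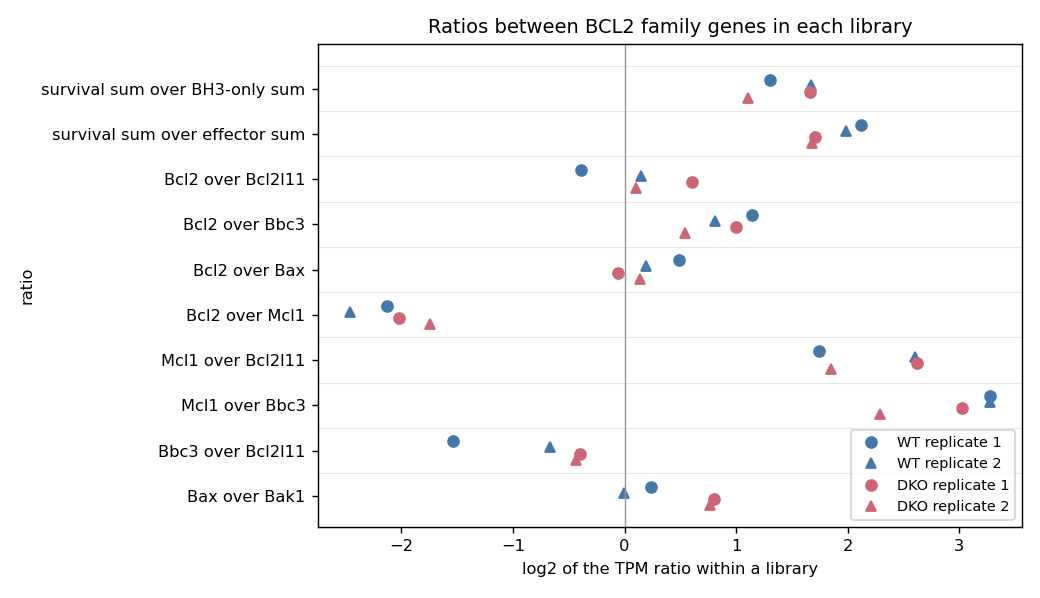
Log2 TPM ratio within each library for the 2 sums and 8 gene pairs, with WT in blue and DKO in red. The survival over BH3-only sums overlap between genotypes, while Bax over Bak1 and Bbc3 over Bcl2l11 are higher in both DKO libraries.

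The members' reads were divided by the authors' quantification among 45 annotated transcripts, and in all 10 genes the same transcript led by counts in the 4 libraries. By share of TPM this held for 8, the exceptions being Bcl2l11 and Bad. Bcl2-201, of 7191 bases, took 91.0 and 92.8% of the Bcl2 counts in WT and 94.8 and 93.8% in DKO. Mcl1-201 took 94.9 to 97.4% of Mcl1, and Bcl2l1-201 took 84.8 and 88.5% of Bcl2l1 in WT and 78.1 and 74.6% in DKO. For Bbc3, the transcript Bbc3-201 rests on 64.3 and 57.8 counts in WT against 145 and 264 in DKO, and its share was 82.4 and 76.1% in WT against 91.6 and 90.6% in DKO. The other Bbc3 transcripts had few counts, so the higher Bbc3 level in DKO lay on Bbc3-201.

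Bcl2l11 and Bad were more divided. Bcl2l11-205 held 53.1 and 53.6% of Bcl2l11 in WT and 68.7 and 58.6% in DKO, with the remainder over 7 transcripts, and Bad-202 held 33.8 and 66.3% of Bad in WT and 45.2 and 41.6% in DKO. Bak1 was led by Bak1-201, which is annotated as a target of nonsense-mediated decay, with 92.3 and 61.1% in WT and 74.5 and 55.0% in DKO. Coding Bak1 transcripts thus held 7.71 and 38.9% against 25.5 and 45.0%, overlapping between genotypes and variable within them. Shares of single transcripts are estimates where reads fit several, and they were not tested.

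**Figure D4:**
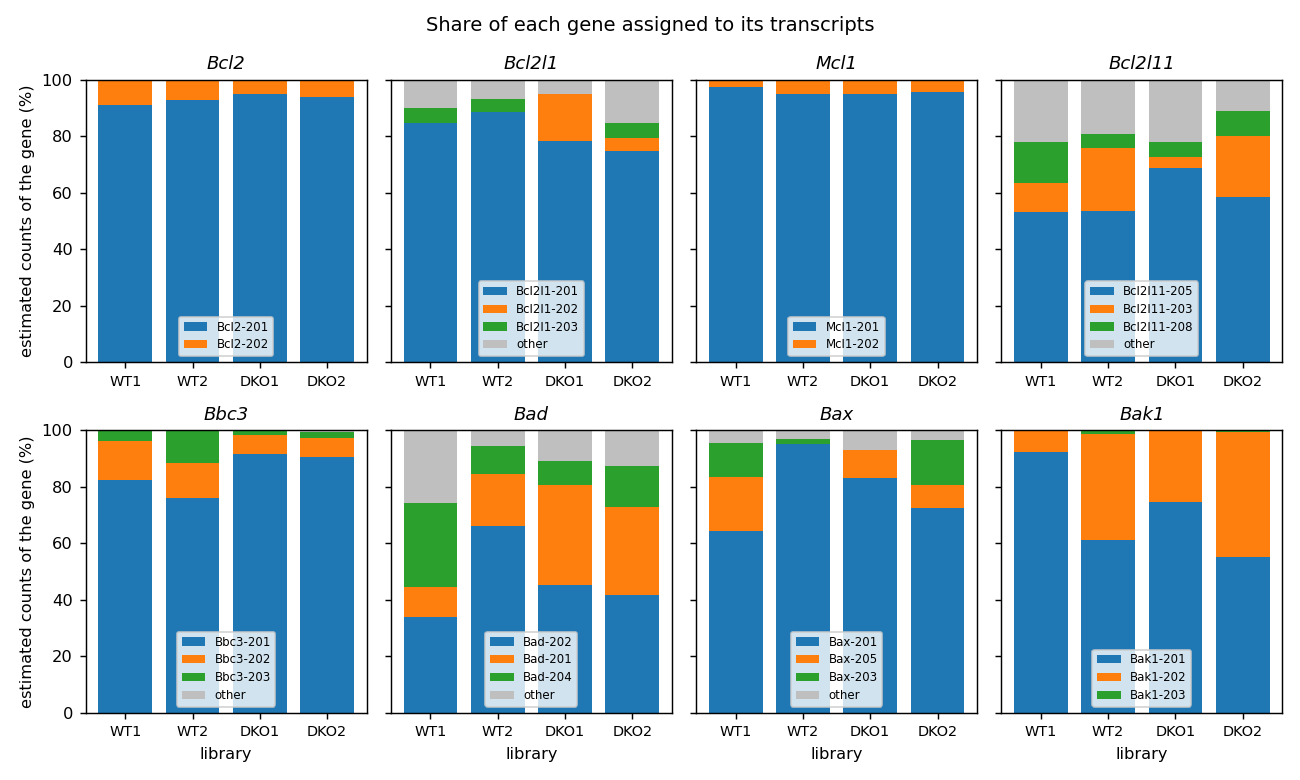
Stacked bars of the percentage of each gene's estimated counts assigned to its 3 leading transcripts (grey, all others) in each library, for 8 members. Bcl2-201, Mcl1-201 and Bbc3-201 dominate their genes, whereas Bak1-201 ranges from 55.0 to 92.3%.

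FOXO and p53 factors are known regulators of Bbc3, Bcl2l11 and Bax, so the windows from 250 bases before to 50 bases after each annotated start were searched for the FOXO core GTAAACA and for the p53 half-site consensus, on both strands. RefSeq promoter windows on GRCm38.p6 matched 9 members by symbol. These members have 15 windows. GTAAACA was found in 2 of the 15, of Bbc3 and Bcl2l11, and in 3.65% of all 32851 windows. The p53 half-site was found in 1 of the 15, of Bax, and in 8.36% of all windows. The 250 bases upstream of the start are shown for these 3 genes, which held a match. A match does not show binding, and regulation of these genes by FOXO or p53 factors was not tested. Capitals mark the match, which is on the opposite strand in Bbc3 and reads as a half-site on both strands in Bax.
Bbc3: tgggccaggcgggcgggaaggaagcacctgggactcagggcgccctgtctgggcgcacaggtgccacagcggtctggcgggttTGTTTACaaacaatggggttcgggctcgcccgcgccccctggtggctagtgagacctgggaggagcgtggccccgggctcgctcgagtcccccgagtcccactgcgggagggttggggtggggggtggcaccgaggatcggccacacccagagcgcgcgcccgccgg
Bcl2l11: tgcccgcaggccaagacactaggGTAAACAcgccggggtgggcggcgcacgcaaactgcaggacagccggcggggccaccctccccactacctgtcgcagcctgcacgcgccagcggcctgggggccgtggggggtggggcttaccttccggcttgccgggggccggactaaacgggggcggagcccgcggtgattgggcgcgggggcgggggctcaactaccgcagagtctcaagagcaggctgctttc
Bax: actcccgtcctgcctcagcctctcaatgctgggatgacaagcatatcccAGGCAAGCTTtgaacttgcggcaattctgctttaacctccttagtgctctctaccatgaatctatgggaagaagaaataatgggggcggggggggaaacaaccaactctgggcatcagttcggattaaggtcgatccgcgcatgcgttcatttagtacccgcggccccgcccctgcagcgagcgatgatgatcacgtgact

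The stretches are chr7:16310011-16310260 (plus strand), chr2:128125788-128126037 (plus strand) and chr7:45466899-45467148 (minus strand). The match begins 167 bases before the start in Bbc3, 227 in Bcl2l11 and 201 in Bax. None of these stretches overlaps an annotated exon. The Bbc3 stretch lies inside the GENCODE span of the gene (16308393 to 16318205), so it precedes a RefSeq start within that span. Trp53 itself, which encodes p53, was at 29.1 and 32.4 CPM in WT and 38.1 and 35.8 CPM in DKO (log2 fold change 0.26, SE 0.14). Of the FOXO genes, named here after their values were seen, Foxo1 had a log2 fold change of −0.04 (SE 0.13) and Foxo3 of 0.10 (SE 0.13).

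Outside the 10 members, 15 further BCL2 family genes were listed and 7 were tested, of which 0 passed in either direction. Over all 63 tested genes of this and the 5 lists that follow, 0 passed by edgeR (0.124% of all genes) or DESeq2 (188 of all 12863 genes). At an unadjusted p below 0.05 by edgeR, 5 were higher (3.82% of all genes) and 1 lower (4.35% of all genes). The median log2 fold change of the 63 was 0.02. Bmf, a BH3-only gene linked to cytoskeletal stress, stood apart with 25 and 19 estimated counts in WT and 5 and 8 in DKO. Its levels of 1.79 and 1.64 CPM against 0.294 and 0.369 CPM gave a log2 fold change of −2.34 (SE 0.74, 95% interval −4.03 to −0.64), with an edgeR adjusted p of 0.414. Bnip3l, a mitophagy receptor, was at 62.6 and 57.5 CPM in WT and 65.6 and 65.3 CPM in DKO (log2 0.12). The log2 fold changes were −0.03 for Bcl2l13, also a mitophagy receptor, 0.26 for Bcl2l12, −0.40 for the hypoxia-induced Bnip3 and −0.04 for the pro-survival Bcl2l2. Bcl2a1b, an A1 pro-survival gene, had 0.61 with overlapping libraries (0.19 without WT replicate 1, 1.19 without WT replicate 2), and it is uncertain because reads can be shared with the near-identical Bcl2a1a and Bcl2a1d.

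Downstream of the family, 14 apoptosome and caspase genes were tested and none passed, with a median of −0.04. Casp6, an executioner caspase that cleaves nuclear lamins, was at 5.53 and 5.87 CPM in WT and 9.18 and 10.9 CPM in DKO (log2 fold change 0.82, SE 0.22; edgeR adjusted p 0.307). Only Casp6 and Il7r, of the 63 tested list genes outside the members, passed edgeR with total counts (adjusted p 0.0392 and 0.0429). Both also passed edgeR with the polymerase III scaling (adjusted p 0.0222 and 0.0230). Over all genes, 2.02% passed with total counts and 3.84% with the polymerase III scaling. Cycs, which encodes cytochrome c, was at −0.15, the caspase activator Diablo at −0.24, the nuclease inhibitor Dffa at 0.36 and the DNA repair enzyme Parp1 at 0.07. Of 6 tested caspase inhibitor genes none passed (median 0.01), although Xiap, a direct inhibitor of caspases, was at 31.8 and 32.8 CPM in WT and 42.0 and 41.3 CPM in DKO (log2 fold change 0.37; edgeR adjusted p 0.502). Birc6 was at 346 and 320 CPM in WT and 246 and 283 CPM in DKO (log2 −0.33), Birc2 at −0.01 and Birc3 at 0.03.

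None of 13 death receptor pathway genes passed, with a median of 0.16 and both DKO libraries above both WT libraries for 6 (19.8% of all genes) and below for 3 (18.8% of all genes). Casp8, the initiator caspase that cleaves BID, was at 60.6 and 66.0 CPM in WT and 81.5 and 78.9 CPM in DKO (log2 fold change 0.34; edgeR adjusted p 0.534). The TNF receptor gene Tnfrsf1b was at 0.39, the kinase gene Ripk1 at 0.24 and Cflar, whose product restrains caspase-8, at 0.18. Of 15 tested upstream regulators none passed (median 0.02). The 14-3-3 gene Ywhaz, whose product holds phosphorylated BAD, was at −0.12 and the glucocorticoid-induced Tsc22d3 at −0.07. Among 8 tested genes for the turnover of family proteins and their mitochondrial docking (median −0.07, none passed), Huwe1, a ubiquitin ligase for MCL1, was at 367 and 377 CPM in WT and 324 and 323 CPM in DKO (log2 −0.20). Vdac2, which recruits BAK to mitochondria, was at −0.0025, Usp7 at −0.09 and Btrc at −0.38.

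**Figure D5:**
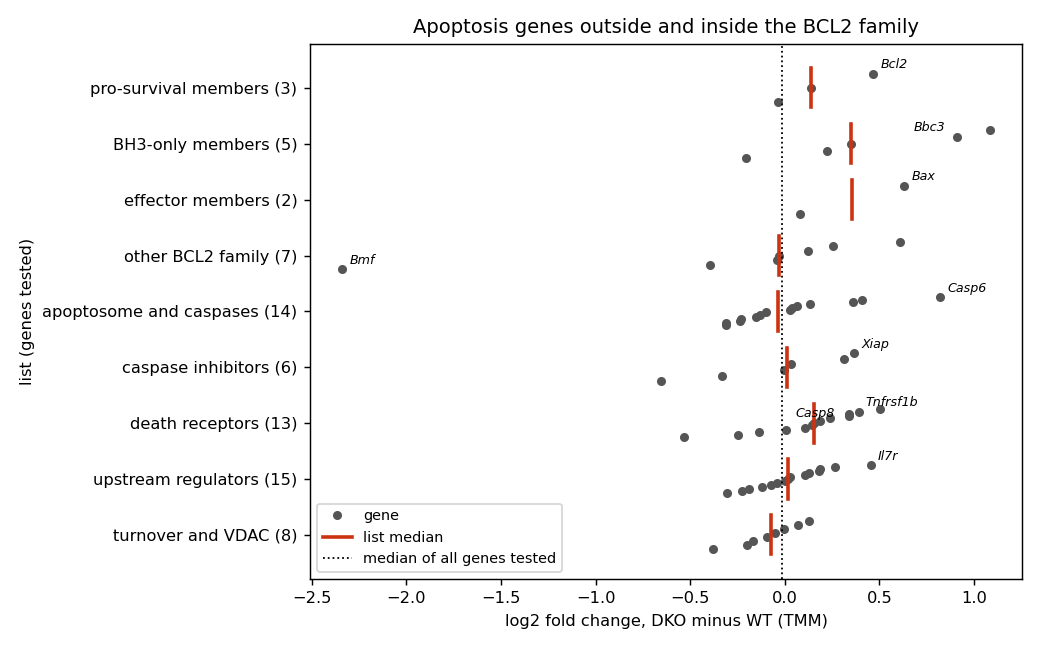
Log2 fold change (DKO minus WT, TMM) of every tested gene of the members' classes and 6 further lists, with list medians in red and the median of all genes dotted. Genes with an unadjusted p below 0.05 are named, and Bmf lies far below the other family genes at −2.34.

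Markers of other T cell states were higher in DKO beside Bcl2, Bbc3 and Bax. The summed level of 10 regulatory T cell markers was 71.7 and 94.6 CPM in WT and 148 and 165 CPM in DKO. Of these sums, Izumo1r alone made up 34.5 and 50.2 CPM in WT and 77.1 and 74.6 CPM in DKO. Both DKO libraries were above both WT for 9 of 10 (19.8% of all genes). Foxp3, which defines these cells, was at 1.79 and 2.5 CPM in WT and 5.12 and 10.4 CPM in DKO. For 7 effector and memory markers the sums were 40.8 and 40.6 CPM in WT and 61.5 and 66.2 CPM in DKO. For 5 of the 7, both DKO libraries were above both WT (19.8% of all genes). Among these 5 are Ccl5 and S100a6, each at 0 and 0.0863 CPM in WT, so few reads set their order. S100a4, Ccl5 and Cxcr3 were below 1 CPM in every library. For 5 CD8 T cell markers the sums were 16.8 and 17.7 CPM in WT and 31.1 and 34.6 CPM in DKO. Of the 5, 3 were higher (19.8% of all genes) and 1, Gzmm, lower (18.8% of all genes) in both DKO libraries. The defining Cd8a and Gzmm were below 1 CPM in every library. None of these markers passed edgeR's test at an adjusted p below 0.05, and their part in the levels of the members was not tested. The 6 naive T cell markers overlapped as a sum, at 2315 and 2757 CPM in WT and 2569 and 2516 CPM in DKO.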

How the data were processed

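RNA of 2 WT and 2 DKO libraries was made with a stranded total RNA kit, per the labels' protocols. The submitters' processing notes name kallisto and the builds mm10 and GRCm38; the version of kallisto, its annotation and its strand setting were not found in the labels used here. Per the file headers, each deposited file lists unscaled estimated counts, TPM, which the authors' tool corrects for length and depth, and transcript lengths in bases. Of 126782 transcripts, 125182 (98.7%) joined GENCODE M21 by identifier without version. Estimated counts were summed to genes, rounded and tested with edgeR 4.0.16 in R 4.3.3 (filterByExpr, TMM, robust quasi-likelihood F test, Benjamini-Hochberg at 0.05). SE is the log2 fold change over the square root of F, and the 95% interval uses the t distribution of the fit. Functions were tested on simulated data. Alternatives used limma 3.58.1 on log2 TPM (mean TPM of at least 1) with pseudocounts of 0.5 and 0.1, DESeq2 1.42.0 and other scalings, filters and samples. At 3 counts, the floor, a gene had 0.168 to 0.216 CPM; intervals cover no error of the division of reads among transcripts. The members and lists were chosen with earlier results of these data known. The genes named are the members, Btg1 and Btg2, all tested family genes and, from each other list, the 3 of highest mean TPM and the 2 with the smallest unadjusted p; Foxp3 and other markers are named only for their list.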

Additional observations from a re-analysis of the deposited data

How the results depend on the processing

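The count of members past edgeR's threshold was 0 under TMM, 1 when low counts were kept, 2 with total counts and 3 with the polymerase III scaling, and 0 in the other alternatives, including each library left out in turn. The TPM fits tested only 4 members (Bcl2, Mcl1, Bcl2l11 and Bax), so their 0 does not cover the other members. In the 63 tested list genes outside the members it was 2 with total counts (2.02% of all genes) and 2 with the polymerase III scaling (3.84% of all genes). Over all genes it was 16 (7 higher, 9 lower), against 188 (55 higher, 133 lower) with DESeq2, 31 with an effective length offset, 5 in both TPM fits, 395 (141 higher, 254 lower) with low counts kept, 494 (472 higher, 22 lower) with the polymerase III scaling, 51 (35 higher, 16 lower) with protein-coding genes only and 260 (194 higher, 66 lower) with total counts, and 40 to 165 with 1 library left out. With the replicate number as a block 142 genes and 0 members passed. The labels mention 2 pairs of WT and DKO mice without saying that the numbers mark them, and the deviations of same-numbered libraries had a correlation of −0.316.

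Signs turned for the following genes, none of them past the threshold, with values given relative to the median of all genes where a setting moves it. In the TPM fits (pseudocount 0.5, then 0.1) Mcl1 was at 0.049 and 0.015, Bcl2l11 at −0.084 and −0.069, Birc3 at −0.149 and −0.191, Cflar at −0.192 and −0.229 and Vdac2 at 0.085 and 0.079, and Ripk1 was at −0.0094 with 0.5. With low counts kept, Mcl1 was at 0.00094, Bcl2l13 at 0.011, Birc2 at 0.033 and Vdac2 at 0.036. With total counts Bcl2l2, Birc2 and Vdac2 were at 0.022, 0.012 and 0.017, and with the polymerase III scaling at 0.105, 0.0051 and 0.027. Birc3 was at −0.0039 with protein-coding genes only and Vdac2 at 0.0013 with the length offset. With 1 library left out, the ranges were −0.11 to 0.050 for Mcl1, −0.13 to 0.33 for Bak1, −0.77 to 0.48 for Bcl2l2, −0.16 to 0.13 for Bcl2l13, −1.51 to 0.23 for Bnip3, −0.067 to 0.22 for Parp1, −0.34 to 0.059 for Cycs, −0.11 to 0.22 for Birc3, −0.084 to 0.11 for Birc2, −0.23 to 0.016 for Ywhaz, −0.19 to 0.068 for Tsc22d3, −0.25 to 0.095 for Usp7 and −0.076 to 0.086 for Vdac2. Without a change of sign, the range was 0.47 to 1.52 for Pmaip1, −0.27 to −0.099 for Bid, 0.0026 to 0.56 for Bcl2l12, 0.095 to 0.68 for Dffa, −0.41 to −0.21 for Birc6 and −0.53 to −0.20 for Btrc. The ratio of Bbc3 over Bcl2l11 differed by 0.25 to 1.12, of Bcl2 over Bbc3 by −0.44 to 0.022 and of Mcl1 over Bcl2l11 by −0.37 to 0.49.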
